A study of Mus musculus with 6 samples.

Results

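The granins are a family of acidic proteins that neuroendocrine cells pack into secretory granules together with their hormones. The 5 genes described here are *Chga*, *Chgb*, *Scg2*, *Scg3* and *Vgf*, taken by gene symbol with earlier results of these data known, and all 5 were among the 13535 genes of the expression table. RNA came from beta-cells purified by FACS after 5 days of culture as reaggregated clusters, made from islets of 12-week-old wild-type C57BL/6JRj male mice. In pseudo-islets the beta-cells had been cultured with all the other endocrine cell types per the labels, named in the study's text as alpha- and delta-cells, and in pseudo-beta they had been cultured alone. Each condition had 3 libraries, 1 from each of the experiments numbered 35, 36 and 37. The question was whether the presence of alpha- and delta-cells during culture changes what beta-cells express. Both conditions are reaggregated clusters in culture, and the sort discarded cells carrying the blood-cell markers CD45 or TER119 or the endothelial marker CD31. Beta-cells were set apart from alpha- and delta-cells by the surface markers CD24, CD49f, CD71 and CD81, of which CD81 marks alpha-cells.

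Granins aggregate in the acidic, calcium-rich lumen of the trans-Golgi network, which helps to condense cargo into dense-core granules. They are also prohormones, which the convertases and carboxypeptidase E of the maturing granule cut into smaller peptides that leave the cell with insulin. Several granin promoters carry a cAMP response element, the binding site of CREB, and glucagon and GLP1 receptors raise cAMP in beta-cells.

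That element was searched for in the promoters of the granin genes. Whether it links these genes to cAMP in these beta-cells was not tested. Promoter windows of RefSeq on GRCm38.p6, from 250 bases before to 50 bases after the start of a gene, were found for 4 of the 5 genes, all except *Vgf*. Each line below gives 30 bases in the direction of transcription, and capitals mark the longest match to the searched words TGACGTCA (the full element), TGACGTAA and TGACG (its first 5 bases, contained in both longer words), on either strand.
Chgb: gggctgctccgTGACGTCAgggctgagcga
Scg2: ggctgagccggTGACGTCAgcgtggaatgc
Chga: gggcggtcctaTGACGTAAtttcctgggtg
Scg3: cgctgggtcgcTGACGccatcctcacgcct

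The window of *Chgb* lies at chr2:132781559-132781588 on the plus strand, with the full element 72 to 65 bases before the RefSeq start. That of *Scg2* lies at chr1:79440076-79440105 on the minus strand, with the full element 68 to 61 bases before the start. *Chga* has the variant TGACGTAA 44 to 37 bases before its start, at chr12:102554886-102554915 on the plus strand, and *Scg3* has TGACG 30 to 26 bases before its start, at chr9:75684068-75684097 on the minus strand. Of 32851 promoter windows of the same length, 1.79% hold TGACGTCA, 0.499% hold TGACGTAA and 20.8% hold TGACG. Among the 12578 windows of genes in the table, the shares are higher, at 3.22%, 0.843% and 31.5%. GENCODE M21 places the starts of *Chgb* and *Scg2* further upstream, so that in 1 of 1 and 1 of 2 annotated transcripts the printed bases fall within the first exon. A match is a word in the sequence and was not measured as a binding site here.

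*Scg2*, *Chga*, *Scg3* and *Chgb* were among the most abundant transcripts of these beta-cells, while *Vgf* was far down the table. Levels of different genes are compared per kilobase of annotated exons, which 13526 genes had. On that scale *Scg2*, the precursor of secretoneurin, ranked 10, and *Chga*, the precursor of pancreastatin, ranked 13. *Scg3*, which binds chromogranin A and tethers it to granule membranes, ranked 44 and *Chgb*, a granule-condensing granin, ranked 46. *Vgf*, the precursor of several neuropeptides, ranked 10687. The mean over the 6 libraries was 36053 normalized counts per kilobase for *Scg2*, 24928 for *Chga*, 7902 for *Scg3*, 7518 for *Chgb* and 13.9 for *Vgf*. On that scale *Scg2* lay above *Chga* without overlap in either condition, at 36264 to 39286 against 23225 to 29827 normalized counts per kilobase in pseudo-islets and 33001 to 35838 against 19911 to 26221 in pseudo-beta. That gap rests on the length used. The annotated exons of *Chga* cover 2756 bases, but its only protein-coding transcript has 1883, while *Scg2* has 2515 by either measure. With the shorter length, the levels of *Chga* would rise into the range of *Scg2*. *Chgb* and *Scg3*, neighbours in the ranking above, did not stand alike in both conditions. In pseudo-islets their levels overlapped, at 8365 to 9235 normalized counts per kilobase for *Chgb* and 7311 to 8829 for *Scg3*, whereas in pseudo-beta those of *Chgb*, 5920.1 to 6630.1, were all below those of *Scg3*, 6976 to 8509. *Cpe*, the carboxypeptidase of the same granules, reached 14045 normalized counts per kilobase, between *Chga* and *Scg3*.

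**Figure D1:**
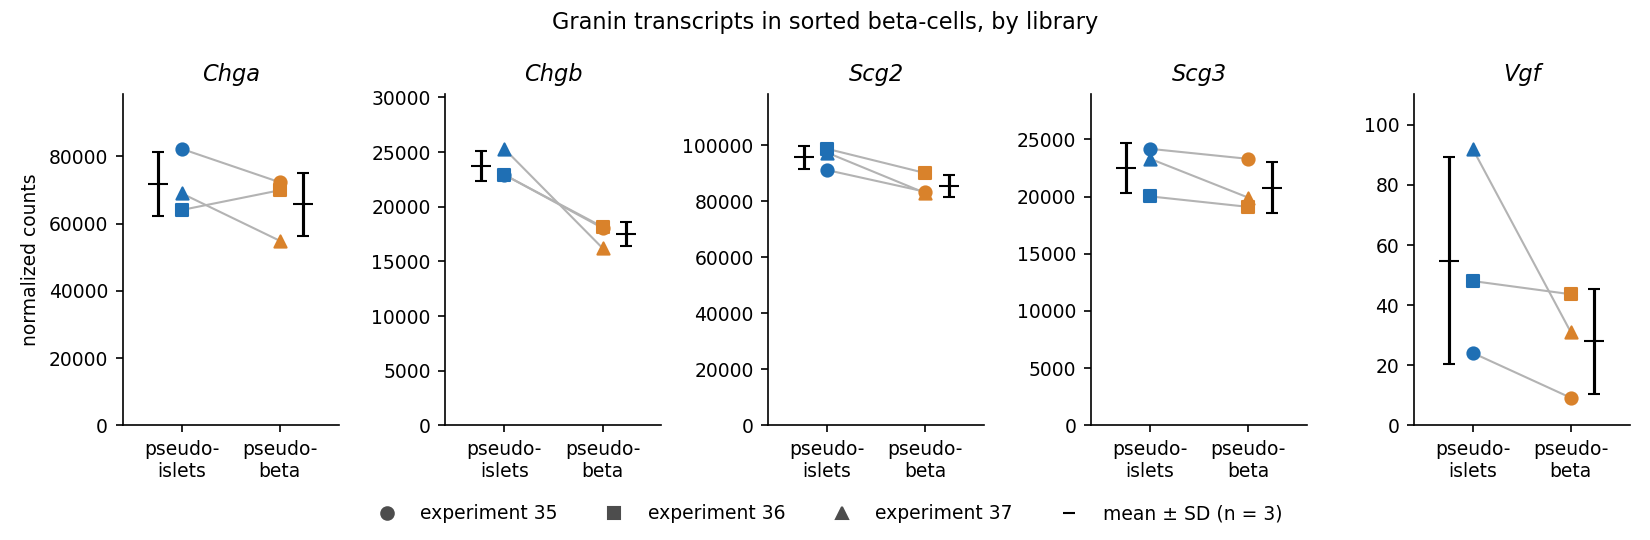
Normalized counts (vertical axes, each from 0 and on a scale of its own) of the 5 granin genes in the beta-cells of pseudo-islets and of pseudo-beta. Symbols are libraries, lines join the libraries of 1 experiment and black marks give the mean ± SD (n = 3). *Chgb* and *Scg2* separate the conditions, *Chga* crosses in experiment 36, and *Vgf* is lower than the others by orders of magnitude.

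*Chgb* (ENSMUSG00000027350) was the granin with the clearest difference, higher in beta-cells that had been cultured with alpha- and delta-cells. The gene has 5 exons on chromosome 2 of GRCm38 from 132781278 to 132795079, and no other annotated gene overlaps it. In experiments 35, 36 and 37, pseudo-islets gave 22938, 22919 and 25303 normalized counts of *Chgb*, and pseudo-beta gave 18056, 18166 and 16221. The lowest pseudo-islets library lay above the highest pseudo-beta library, and the means were 23720.1 ± 1371 and 17481 ± 1093 (SD, n = 3). Within experiments, the level in pseudo-islets was 1.27, 1.26 and 1.56 times that in pseudo-beta, the widest gap being that of experiment 37. In bulk RNA, a change in the number of cells of a type and a change in RNA per cell cannot be told apart.

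The difference was tested with limma on log2(normalized count + 1) over all 13535 genes, with Benjamini-Hochberg adjustment and a call at an adjusted p under 0.05. Without pairing the libraries, limma put the log2 ratio of pseudo-islets over pseudo-beta at 0.44 for *Chgb*, with a standard error of 0.11 and an adjusted p = 0.525. None of the 5 granins was called in that fit, in which 0.0591% of all genes were called, and *Chgb* was the 1 granin with an unadjusted p under 0.05 (5.40% of all genes). When the experiment entered limma as a replicate block, so that libraries were compared within experiments, the standard error of *Chgb* fell to 0.07 and the adjusted p to 0.029. The 95% confidence interval of its fold was then 1.21 to 1.52. That made 1 of 5 granins called, against 0.539% of all genes, and by unadjusted p *Chgb* stood at rank 41 of 13535. The call did not hold with every experiment left out, as the adjusted p in limma was 0.073 without experiment 35, 0.017 without 36 and 0.124 without 37. The log2 fold change of *Chgb* was then 0.488, 0.493 and 0.340, and 28, 73 and 45 of all genes were called, against 73 with all experiments. The call also depended on letting the prior variance follow mean expression, without which the adjusted p with the block was 0.559 in limma.

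*Scg2* (ENSMUSG00000050711) was slightly higher in pseudo-islets in 3 of 3 experiments, but it was not called. Its 2 exons lie on chromosome 1 from 79434669 to 79440120. Pseudo-islets gave 91203, 98803 and 97434 normalized counts, against 83468, 90133 and 82999 for pseudo-beta. Every pseudo-islets library lay above every pseudo-beta library, as for *Chgb*. Such a separation upward held for 2 of the 5 granins and for 5.63% of all genes, and for 10.8% in either direction. The log2 fold change of *Scg2* was 0.16 and its standard error 0.11 (adjusted p = 0.981 in limma). With the block the adjusted p in limma was 0.266 and the 95% interval of the fold was 1.03 to 1.22. By unadjusted p, *Chgb* and *Scg2* were the 2 granins under 0.05 with the block, where 11.9% of all genes were.

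*Chga* (ENSMUSG00000021194), with 8 exons on chromosome 12 from 102554969 to 102565028, did not move in 1 direction. Pseudo-islets of the 3 experiments gave 82204, 64007 and 68977 normalized counts, and pseudo-beta gave 72266, 69879.5 and 54875. It was higher in pseudo-islets in experiments 35 and 37 and lower in experiment 36, so the conditions overlapped. In limma the log2 fold change was 0.13 with a standard error of 0.14 (adjusted p = 0.998), and the 95% interval of the fold with the block ran from 0.971 to 1.23.

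*Scg3* (ENSMUSG00000032181), with 12 exons on chromosome 9 from 75643189 to 75684056, differed little between the conditions. Pseudo-islets gave 24174, 20017 and 23309.5 normalized counts, and pseudo-beta 23297, 19099 and 19914. Its values followed the experiment more than the condition, with experiment 35 highest and experiment 36 lowest in both. Its log2 fold change in limma was 0.12 with a standard error of 0.13 (adjusted p = 0.998), and with the block the 95% interval of the fold was 0.983 to 1.19. The transcript model *Gm37871*, which awaits experimental proof, lies within *Scg3* on the opposite strand, from 75666652 to 75667339, and is not in the table.

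*Vgf* (ENSMUSG00000037428), with 5 exons on chromosome 5 from 137026392 to 137033351, had the highest fitted ratio of the 5 and the lowest level. Pseudo-islets gave 24.1, 48.0 and 92.0 normalized counts, against 9.16, 43.6 and 31.0 for pseudo-beta. Pseudo-islets were higher in each experiment, at 2.63, 1.10 and 2.97 times pseudo-beta, yet the conditions overlapped because the libraries of a condition were far apart, with coefficients of variation of 62.95% in pseudo-islets and 62.4% in pseudo-beta. The log2 fold change in limma was 0.99 on the log2(value + 1) scale, with a standard error of 0.65 (adjusted p = 0.983). With the block the adjusted p in limma was 0.428, and the 95% interval of the fold, 0.988 to 4.01, holds both equal levels and a several-fold difference. The other 4 granins had coefficients of variation of 4.23% to 14.4% within a condition.

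**Figure D2:**
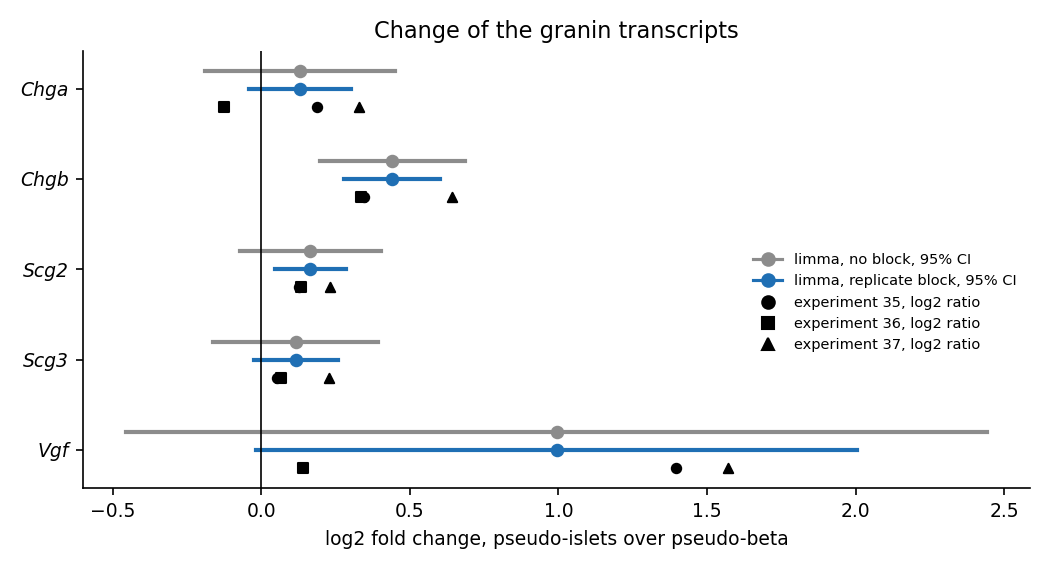
Log2 fold change of each granin, pseudo-islets over pseudo-beta (horizontal axis, 0 marks equal levels), with 95% confidence intervals from limma without the block (grey) and with it (blue), and the log2 ratio of each experiment (black symbols). The intervals of *Chgb* lie above 0 in both fits, that of *Scg2* only with the block, and that of *Vgf* is the widest.

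Counting directions, 4 of the 5 granins were higher in pseudo-islets in all 3 experiments, all but *Chga*, as were 18.0% of all genes. The median log2 fold change of the 5 was 0.16, against 0.01 over all genes. In each experiment the deposited normalization leaves pseudo-islets with a larger total than pseudo-beta, so the same genes were also read as shares of their library's summed normalized counts. Scaled to its total, a library no longer depends on the size factors, and the median log2 fold change of all genes moved by -0.07.

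As shares, *Chgb* took 0.123%, 0.120% and 0.129% of the library in the 3 pseudo-islets samples, against 0.0998%, 0.101% and 0.0883% in pseudo-beta, so its conditions still did not overlap. *Scg2* took 0.489%, 0.519% and 0.496% in pseudo-islets, against 0.461%, 0.501% and 0.452% in pseudo-beta, and on this scale its conditions overlapped. *Chga* took 0.441%, 0.336% and 0.351% against 0.399%, 0.388% and 0.299%. *Scg3* took 0.130%, 0.105% and 0.119% against 0.129%, 0.106% and 0.108%, and was then higher in pseudo-islets in 2 of 3 experiments instead of 3. *Vgf* took 0.000129% to 0.000469% in pseudo-islets and 5.06e-05% to 0.000242% in pseudo-beta. The mean log2 ratio of the shares was 0.37 ± 0.09 (SE, n = 3 experiments) for *Chgb*, 0.09 ± 0.02 for *Scg2*, 0.06 ± 0.14 for *Chga*, 0.04 ± 0.05 for *Scg3* and 0.96 ± 0.45 for *Vgf*. *Chgb* stayed called with the block after this scaling, with a log2 fold change of 0.37 and an adjusted p = 0.032 in limma.

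Together the 5 granins took 1.18%, 1.08% and 1.10% of the library in pseudo-islets, against 1.09%, 1.10% and 0.947% in pseudo-beta. These totals overlapped, with pseudo-islets higher in experiments 35 and 37 and lower in experiment 36. In counts not corrected for length, *Scg2* and *Chga* make up most of the sum, and its direction in each experiment was that of *Chga*.

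**Figure D3:**
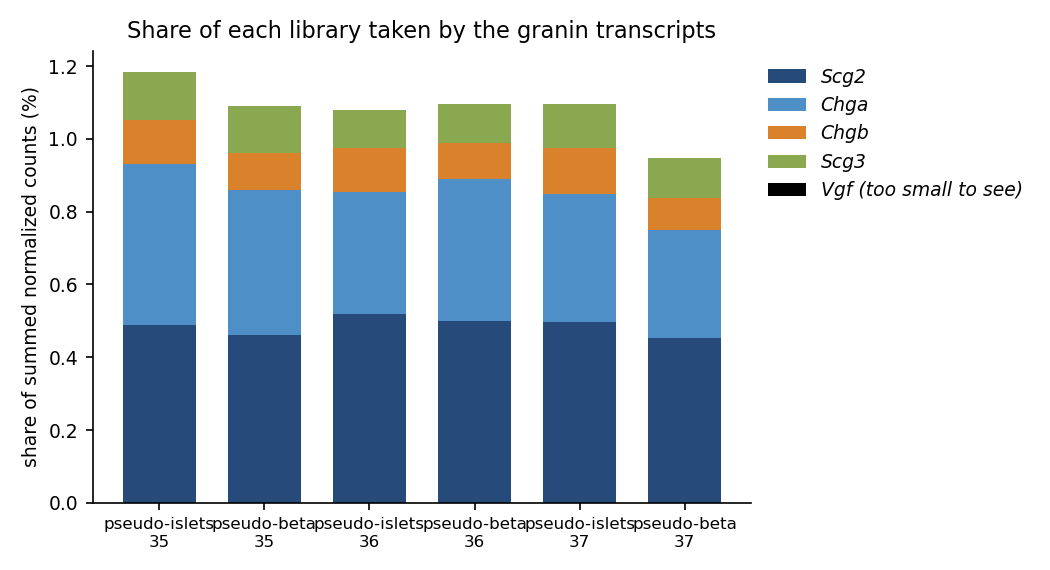
Share of each library's summed normalized counts (vertical axis, in percent, from 0) taken by the granins, stacked by gene, with the 2 libraries of an experiment side by side. The stack is highest in pseudo-islets of experiment 35 at 1.18% and lowest in pseudo-beta of experiment 37 at 0.947%, and the segment of *Chgb* is thicker in pseudo-islets of each experiment.

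Ratios of 2 granins within a library do not depend on any scaling. *Chgb* stood at 0.252, 0.232 and 0.2597 of the *Scg2* count in pseudo-islets, but at 0.216, 0.202 and 0.195 in pseudo-beta, with no overlap. To *Chga* the ratios were 0.279, 0.358 and 0.367 in pseudo-islets, against 0.2498, 0.2600 and 0.296 in pseudo-beta. To *Scg3* they were 0.949, 1.15 and 1.09 in pseudo-islets, against 0.775, 0.951 and 0.815 in pseudo-beta. In each of the 3 experiments, *Chgb* was thus higher relative to each of the 3 other abundant granins in pseudo-islets, by 0.28, 0.31 and 0.32 on the log2 scale on average. A two-sided exact permutation test of 3 against 3 libraries gave p = 0.1, 0.2 and 0.2 for *Scg2*, *Chga* and *Scg3*, where 0.1 is the smallest it can give. Adjusted over all 10 pairs of granins, p was 0.667 in the exact test for each of these 3. The ratio of *Scg2* to *Scg3* differed little, by 0.07, 0.06 and 0.00 in log2 in the 3 experiments.

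**Figure D4:**
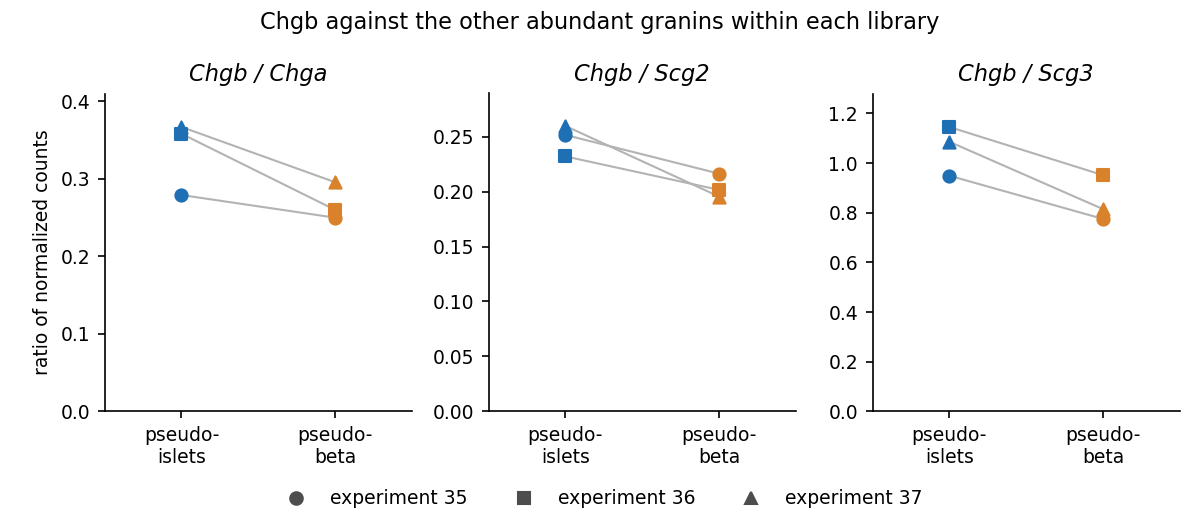
Ratio of the normalized count of *Chgb* to that of *Chga*, *Scg2* and *Scg3* (vertical axes from 0) in each library, with lines joining the libraries of 1 experiment. Every line falls from pseudo-islets to pseudo-beta, and only the ratio to *Scg2* separates the conditions.

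The genes of the granule around the granins were counted from lists, with calls from the fit with the block read against the 0.436% of all genes that were higher and the 0.103% that were lower in pseudo-islets. Among 6 prohormone-processing enzymes, 2 were called and both were higher in pseudo-islets, and the median log2 fold change was 0.29. Without the block limma called 0 of the 6, with 1 at an unadjusted p under 0.05, where 5.40% of all genes were. *Pcsk1*, the convertase that makes the first cuts in proinsulin and granins, gave 15813, 13399.8 and 12644 normalized counts for pseudo-islets, against 11265, 10927 and 8881 for pseudo-beta. Its groups did not overlap. Its log2 fold change of 0.43 was close to the 0.44 of *Chgb*, and with the block its standard error was 0.07 (adjusted p = 0.028 in limma). *Cpe*, which trims the basic residues left by the convertases, gave 24257, 40674 and 59681 for pseudo-islets and 21134, 30654 and 43457 for pseudo-beta. It was higher within each experiment, while the conditions overlapped because the experiments lay far apart. With the block its log2 fold change was 0.35 with a standard error of 0.07 (adjusted p = 0.043 in limma). Neither call held in every experiment left out. The adjusted p in limma of *Pcsk1* was 0.147 without experiment 35 and 0.124 without 37, and that of *Cpe* was 0.126 without 36 and 0.184 without 37. With each library scaled to its total as well, *Cpe* was not called (0.052 in limma), but it was with the 10 most abundant genes left out of the total (0.043 in limma).

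The other enzymes were not called. The convertase *Pcsk2* had a log2 fold change of 0.20, the lowest of the list, and the amidating enzyme *Pam* had 0.29.

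The pair of granin-like chaperones split. *Scg5*, which encodes the PC2 chaperone 7B2, gave 13306, 17292 and 19028 normalized counts for pseudo-islets and 12611, 14122 and 15727 for pseudo-beta. Its log2 fold change was 0.21 (adjusted p = 0.248 with the block in limma). *Pcsk1n*, which encodes the PC1 inhibitor proSAAS, gave 6975, 7963 and 8948 for pseudo-islets and 10072.5, 11979.7 and 9618 for pseudo-beta. It was lower in pseudo-islets in 3 of 3 experiments, as were 15.1% of all genes, and its conditions did not overlap, opposite to the granins and to *Pcsk1*, with a log2 fold change of -0.41. It was not called with the block (adjusted p = 0.098 in limma), but it was when each library was also scaled to its total (log2 fold change -0.48, adjusted p = 0.032 in limma).

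Of 16 hormone and peptide cargo genes, 9 were in the table, and *Pdyn*, which encodes prodynorphin, was the 1 called, with and without the block. Pseudo-islets gave 949.8, 2308 and 1792 normalized counts of *Pdyn*, against 156, 314 and 358 for pseudo-beta. Its log2 fold change was 2.60, the highest of the list (adjusted p = 0.046 in limma without the block and 2.26e-05 with it). *Npy*, the neuropeptide Y gene, was lowest at -0.15. The main cargo, *Ins1*, *Ins2* and *Iapp*, had log2 fold changes of 0.17, 0.07 and 0.22 and was not called. The median of the 9 genes was 0.17.

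Among 20 genes of granule membrane proteins, *Atp6v1a*, a subunit of the proton pump that acidifies granules, was the 1 called. Pseudo-islets gave 3761, 3456 and 2886 normalized counts and pseudo-beta 2677, 2385 and 2147, with no overlap. Its log2 fold change was 0.48 (adjusted p = 0.036 with the block in limma). Without any 1 experiment its adjusted p in limma was 0.080 to 0.173. The highest log2 fold change, 0.68, was that of the priming factor *Cadps2*, with 12.2 to 83.7 normalized counts in a library. The lowest, -0.31, was that of the granule zinc transporter *Slc30a8*, which was lower in pseudo-islets in 3 of 3 experiments (adjusted p = 0.166 with the block in limma). When libraries were also scaled to their totals, *Slc30a8* was called (0.049 in limma) and *Atp6v1a* was not (0.057 in limma). With the 10 most abundant genes left out of the totals, *Atp6v1a* was called (0.0495 in limma) and *Slc30a8* was not (0.0514 in limma). *Slc30a8* was also called with the block without experiment 37 (log2 fold change -0.44, adjusted p = 0.026 in limma). The receptor-type phosphatases *Ptprn* and *Ptprn2* had 0.26 and -0.06. The median of the 20 was 0.13, with 16 above 0. Of 18 genes of granule formation at the trans-Golgi network, 0 were called by limma with or without the block. By unadjusted p, 0 of the 18 were under 0.05 without the block, where 5.40% of all genes were. With the block 3 of the 18 were, against 11.9% of all genes. The 18 ranged from -0.21 (*Stx6*) to 0.37 (*Arfip1*).

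Because glucagon acts through cAMP, known cAMP/CREB response genes were counted as well. Of 20, 17 were in the table, and 3 were called with the block, all higher in pseudo-islets. These were *Pdyn*, *Crem*, a cAMP-induced transcription factor, with a log2 fold change of 0.77 (adjusted p = 0.032 in limma), and *Pde4b*, a cAMP-degrading phosphodiesterase, with 0.64 (adjusted p = 0.028 in limma). The median of the 17 was 0.03, and the lowest was *Gem*, a small GTPase, at -0.48. The call of *Crem* ended without any 1 experiment, with an adjusted p in limma of 0.068 without 35, 0.069 without 36 and 0.155 without 37. That of *Pde4b* ended without experiment 35 (0.116 in limma) or 37 (0.158 in limma).

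**Figure D5:**
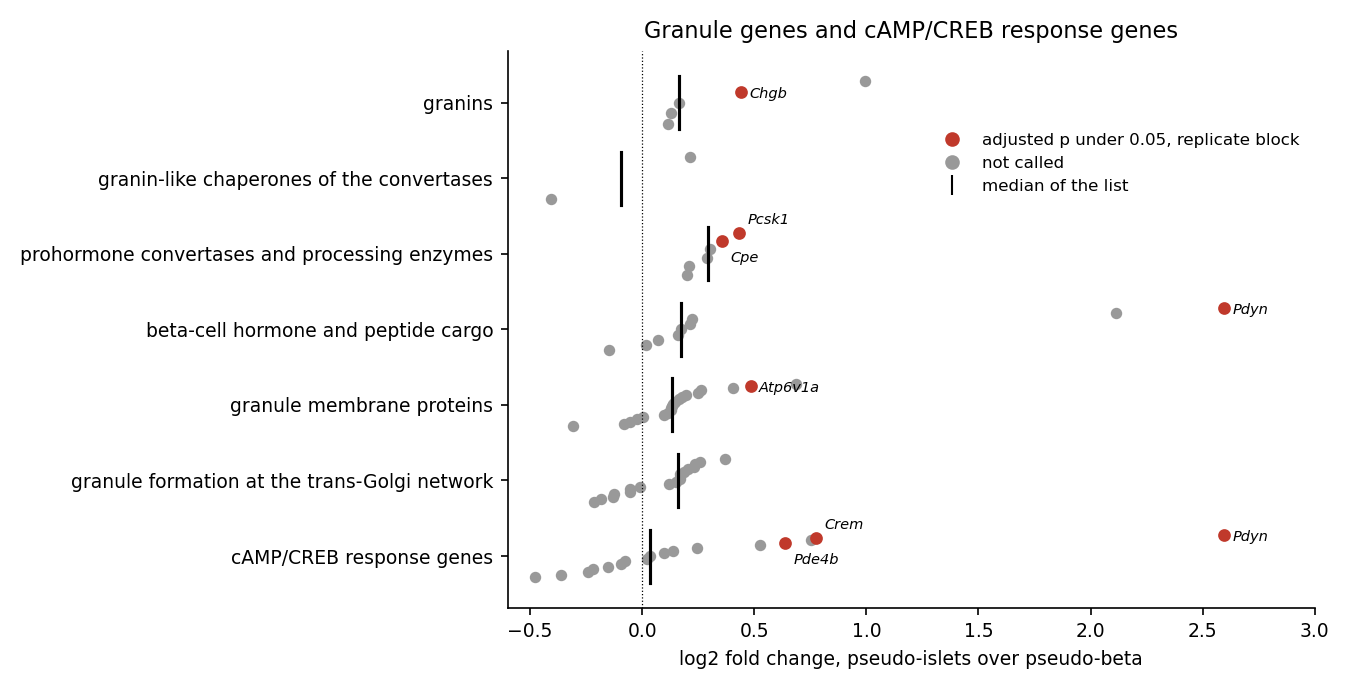
Log2 fold change, pseudo-islets over pseudo-beta (horizontal axis), of the genes of 7 lists, 1 point per gene. Red points have an adjusted p under 0.05 in limma with the replicate block and are named, and black bars mark the median of a list. *Chgb*, *Pcsk1*, *Cpe*, *Atp6v1a*, *Crem*, *Pde4b* and *Pdyn* are red, and all of them lie to the right of 0.

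Markers of other islet cells moved with the condition, and granins are made by all islet endocrine cells. Alpha-cell markers (8 of 12 in the table) summed to 0.0366% to 0.0569% of the library in pseudo-islets and 0.0215% to 0.0290% in pseudo-beta. *Gcg*, the glucagon gene, gave 1763, 941 and 2094 normalized counts for pseudo-islets and 36.1, 14.1 and 0 for pseudo-beta. In the same experiments *Chgb* was higher in pseudo-islets by 4882, 4753 and 9082 normalized counts, not corrected for length. How much *Chgb* goes with a given count of *Gcg* in alpha-cells was not measured here. Delta-cell markers (2 of 8) summed to 0.00194% to 0.00285% and 0.00136% to 0.00151%, with *Sst*, the somatostatin gene, at 146 to 210.2 normalized counts in pseudo-islets and 0 to 4.74 in pseudo-beta. PP-cell markers (3 of 4) summed to 0.00460% to 0.0309% and 0.00282% to 0.0149%, and *Ppy*, the pancreatic polypeptide gene, had 383 to 4172 normalized counts in pseudo-islets and 219 to 1650.1 in pseudo-beta. With the block, 3 alpha-, 1 delta- and 2 PP-cell markers were called, all higher in pseudo-islets. The sort for beta-cells was meant to remove these cells, and their part in the granin values was not tested. No acinar or stromal markers (0 of 12 and 0 of 8), 1 of 8 endothelial and 2 of 10 immune markers were in the table. The endothelial marker took 0.000217% to 0.000399% of the library in pseudo-islets and 0.000307% to 0.000497% in pseudo-beta, and the immune markers 0.00843% to 0.0140% and 0.00537% to 0.00787%. Of these, the complement gene *C1qa*, named after its values were seen, was called with the block (adjusted p = 0.003 in limma). It had 1649 to 2661 normalized counts in pseudo-islets against 977 to 1412 in pseudo-beta, while *Ptprc*, which defines leukocytes, was not in the table.

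The granins did not share 1 profile over the 6 libraries. As a description, the Pearson correlation of log2 values was 0.88 between *Chgb* and *Scg2* and 0.67 between *Chga* and *Scg3*, but 0.03 between *Scg2* and *Scg3* and -0.24 between *Chga* and *Vgf*. Libraries of 1 condition share the kind of culture and those of 1 experiment were read as a pair, so the 6 are not independent. The genes named next were picked for the highest correlation over only 6 libraries, so a value near 1 can come from that choice alone. Of 4447 other genes whose mean reached 500 normalized counts, those closest to *Chgb* included *Gde1* and *Sap18b* (r = 0.99 for each). Closest to *Scg2* were *Eef1g*, *Sephs2* and *Sh3kbp1* (0.99, 0.98 and 0.97). Closest to *Chga* were *Chmp1a*, *Me2* and *Supt5* (0.99, 0.98 and 0.98). *Scg3* had *Taldo1*, *Vps25* and *Gstp1* (0.99, 0.98 and 0.97) as its nearest genes. *Sap18b* and *Gstp1* have near-identical paralogs with which they can share reads. *Vgf* had *Hdgf*, the amidating enzyme *Pam* and *Grpel1* (0.98, 0.96 and 0.96).

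Across the series, summed normalized counts per library ran from 17994346 to 19635287. *Ins2* took 29.7% to 30.8% of a library, and all 10 beta-cell markers were in the table and took 38.5% to 42.5%. How many reads stand behind a library is unknown, so precision comes from the spread between libraries. Without the block this is the spread of the 3 libraries of a condition, and with it the spread left after differences between experiments. The median standard error of a log2 fold change was 0.27 without the block and 0.21 with it. In limma each gene's variance was also drawn toward a prior from all genes, so the p-values rest on both. The spread may in part be technical.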

How the data were processed

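Sorted beta-cells of pseudo-islets and of pseudo-beta (3 libraries each) were profiled by RNA sequencing from 5 ng of total RNA, after ribosomal RNA depletion, in read pairs of 75 bases. The authors aligned reads to GRCm38 with STAR 2.7.6a, quantified genes with RSEM 1.3.1 and normalized between libraries with DESeq2 1.26.0, per the paper's methods and the labels. The deposited signal is the normalized count, which is not whole reads: the best common step in a library made 26.8% to 42.8% of its values between 0.3 and 40 whole, within a tolerance of 0.02. The annotation release and a filter on low genes are not given in the sources used here. Columns of the deposited table with the authors' own fold changes and p-values were not used. Every one of the 13535 genes reached 10 normalized counts in 3 or more libraries.

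Log2(value + 1) was compared with limma 3.58.1 in R 4.3.3, with the prior variance following mean expression, Benjamini-Hochberg adjustment over all genes and a call at an adjusted p under 0.05. Because the values are not counts, no count model was fitted. Deviations from the group mean correlated across genes at 0.119, 0.121 and 0.325 between libraries of experiments 35, 36 and 37, each over 0.1. Between experiments they correlated at -0.203 to 0.0922, the highest being close to the values of experiments 35 and 36. Deviations cancel within a group, so these correlations constrain one another and are weak evidence of pairing. The experiment number, taken from the labels, was read as a pairing, and the replicate block is given beside each call. The fits were also run on simulated data, with an outcome that is not reported here and on which no statement rests. A gene that was not called is not thereby shown to be equal between the conditions.

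The 5 genes, the lists and the rule for naming genes were chosen with earlier results of these data known. Named are the 5 granins, called list genes, the ends of each list, and fixed reference genes. Some genes that the rule names are not reported here. The fits with the block combined with another choice were added after the data were seen. Coordinates, exons and lengths come from GENCODE M21 (GRCm38), and promoters from RefSeq (GRCm38.p6).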

Additional observations from a re-analysis of the deposited data

How the results depend on the processing

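No granin changed direction under any setting tried, and *Chgb* was the only one whose call changed. With the replicate block limma called *Chgb* (log2 fold change 0.44), and the block changed no other granin's call. *Chgb* also stayed called with the block after adding each of 3 choices made after the data were seen, library totals (0.37), totals without the 10 most abundant genes (0.38) or a minimum of 10 normalized counts in every library (0.44), and without experiment 36 (0.49), so that the count of granins called was 1 in each of these and 0 in every other fit run. *Vgf*, at 9.16 normalized counts in its lowest library, has no value under that minimum. Leaving out 1 library at a time without the block moved the log2 fold change over 0.01 to 0.21 for *Chga*, 0.39 to 0.47 for *Chgb*, 0.14 to 0.20 for *Scg2*, 0.06 to 0.20 for *Scg3* and 0.36 to 1.47 for *Vgf*.

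Counts over all genes moved far more. Of 13535 genes limma called 8 without the block, 2 with library totals or without the 10 most abundant genes in them, 1 with a pseudocount of 0.1, 2 without the trend and 0 to 13 without 1 library. Among the latter, limma called 0 without pseudo-islets of experiments 35, 36 or 37 or pseudo-beta of 35 (501 to 794 genes at an unadjusted p under 0.05), 1 without pseudo-beta of 36 and 13 without pseudo-beta of 37. With the block it called 73, and 28, 73 and 45 without experiments 35, 36 and 37. The count with the block was 78 with library totals, 82 without the 10 most abundant genes, 118 with the minimum and 0 without the trend, where 1136 genes had an unadjusted p under 0.05.

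In the lists, calls among processing enzymes went from 0 to 2 with the block, 1 to 2 with the block and another scaling or the minimum, and 0 or 1 without 1 experiment. Among granule membrane proteins they went from 0 to 1. That gene was *Atp6v1a* with the block, also on totals without the 10 most abundant genes, but *Slc30a8* on full library totals and without experiment 37. Among cAMP response genes calls went from 1 to 3, with 2 without experiment 36. The chaperone *Pcsk1n* was the 1 called in its list with the block and either total, and without experiment 37. *Pdyn*, called in the cargo and cAMP lists, was not called (0 in each list) without the block on either library total, with a pseudocount of 0.1, or without 5 of the 6 libraries in turn, nor without the trend in either fit. The causes were not tested.

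With 3 libraries a condition, an unpaired exact test cannot give a p below 0.1, and the read depth behind the normalized counts is unknown. How many animals each experiment pooled, and whether counting used strand, are not given in the sources used here.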

Other observations

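The full cAMP response element of *Chgb* and *Scg2* was looked for in the other genes of the table. Promoter windows were found by symbol for 9789 genes besides the granins, and 378 of them hold TGACGTCA. With the replicate block, 2 of these 378 genes were called in limma (0.529%), a share near that of all 9789 (47 genes, 0.48%). The 2 were *Pcsk1*, the convertase that cleaves granins, and *Sst*, a delta-cell hormone in these sorted beta-cells, and they are named because of this result. The median log2 fold change was 0.03 for the 378 genes and 0.02 for the 9789.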
